A study of Mus musculus with 18 samples.

Results

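Gene expression was compared between the aortas of apolipoprotein E-deficient (ApoE-/-) mice that carried an abdominal aortic aneurysm (AAA) after infusion of angiotensin II and the aortas of ApoE-/- mice infused with saline. The members were the 5 arrays whose labels name AAA and the 6 arrays whose labels name saline, which made 11 of the 18 arrays of the series. Every animal was male, lacked apolipoprotein E, was 13 to 14 weeks old when a subcutaneous pump was placed, and was infused for 4 weeks, with angiotensin II at 1.44 µg/kg/min in the AAA group and with saline alone in the other. The other 7 arrays came from ApoE-/- mice that received the same angiotensin II infusion and developed no aneurysm (no AAA), and they entered the fit only to estimate the spread of each probe. AAA and saline aortas differed both in the infusion and in the lesion, and the effects of these cannot be told apart in this comparison. RNA was taken from the whole aorta, so each value mixes dilated wall, undilated wall and whatever tissue was left around the vessel.

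Angiotensin II is the effector peptide of the renin-angiotensin system, and its prolonged infusion into hypercholesterolaemic mice produces aneurysms of the suprarenal aorta with disruption of the media, entry of macrophages and thickening of the adventitia. The normal wall is made of contractile smooth muscle between lamellae of elastin, an outer adventitia rich in fibrillar collagen, and a sleeve of perivascular fat, which around the mouse thoracic aorta resembles brown fat. Aneurysm tissue is known for the loss of elastin by proteases of macrophages and mesenchymal cells, and for the laying down of new collagen. In whole aorta, fewer cells of a type and less RNA per cell cannot be told apart.

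Levels are given as log2 of the scanner signal divided by the median signal of the same array, so 0 is the median probe of an array and a difference of 1 is a doubling. A gene was called higher or lower in AAA aortas when the Benjamini-Hochberg adjusted p of limma's moderated test over all probes was under 0.05. Of 21434 probes tested, 6540 (30.5%) were higher in AAA aortas and 1977 (9.22%) were lower, 39.7% in either direction, and the median difference over all probes was 0.13. After quantile normalization, which gives every array the same distribution of values, 3573 were higher and 3195 were lower, and the median difference was 0.015. With the study's thresholds, a 2-fold change and an unadjusted p under 0.05, limma gave 790 probes (3.69%) higher and 451 (2.1%) lower. The study's own test, an unpaired t-test with unequal variance, gave 746 and 447 at these thresholds on the values used here. All 5 AAA values lay above all 6 saline values for 16.2% of the probes and below all of them for 5.24%. Levels between 8.87 and 9.17 were the brightest on each array, and differences between levels close to that ceiling are compressed.

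Gene names were at hand for 1340 tested genes, of which 717 were higher, 485 were lower and 138 passed in neither direction. These names came from the study's own lists of genes that differed on these arrays, so the share called among them is not independent evidence. The same holds for the counts, the shares without overlap and the medians of every list below. Listed members without a named probe are not counted. In 40 lists grouped by role, 22 had most of their tested members higher in AAA aortas and 14 had most of them lower. The mean level over the members of a list was highest on AAA 1 or AAA 3 in 20 of those 22 lists, and AAA 4 was the lowest AAA array in 21 of them. In 19 of the 22 every AAA mean still lay above every saline mean, and in 13 of the 14 lower lists every AAA mean lay below every saline mean.

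Groups follow the sample descriptions, which name the scanner columns, and the processed matrix that the authors also deposited carries other labels. Its columns labelled AAA 1 to AAA 5 follow the scanner arrays described as no AAA 1 to no AAA 5, its columns labelled no AAA 1 to no AAA 5 follow those described as AAA 1 to AAA 5, no AAA 6 and no AAA 7 are exchanged, and the 6 saline columns follow their own arrays. The labels alone do not settle which assignment is right. The paper's folds of AAA over saline for Mmp2, Mmp12, Mmp13 and Mmp14 match those found here with the descriptions (3.12, 7.99, 13.6 and 3.99). The study's own group means for these genes thus followed the descriptions. With the matrix's assignment, tried after the data were seen, 5972 probes were higher and 1792 were lower, and of the 169 genes named here that passed, 91 passed in the same direction: 34 of 105 higher genes and 57 of 64 lower genes. The direction and size of the higher genes in particular therefore rest on the descriptions.

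The 6 saline arrays filled 1 BeadChip (the glass slide that carries 6 arrays), no AAA 1 to no AAA 6 filled another, and the 5 AAA arrays shared the last one with no AAA 7. BeadChip and group therefore cannot be told apart for AAA against saline. On the shared BeadChip, no AAA 7 lay below every AAA array in the mean level of 22 of the 22 higher lists. In most of these it was also the lowest no AAA array, as for the chemokine ligands at 1.42, against 2.32 to 2.78 on the others. As 1 array that was low for its own group, it cannot separate BeadChip from group. Some names were also chosen by comparisons that counted this array as no AAA. In 13 of the 14 lower lists no AAA 7 also lay below every saline array, and it was the lowest of the no AAA arrays in 9 of them.

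**Figure D1:**
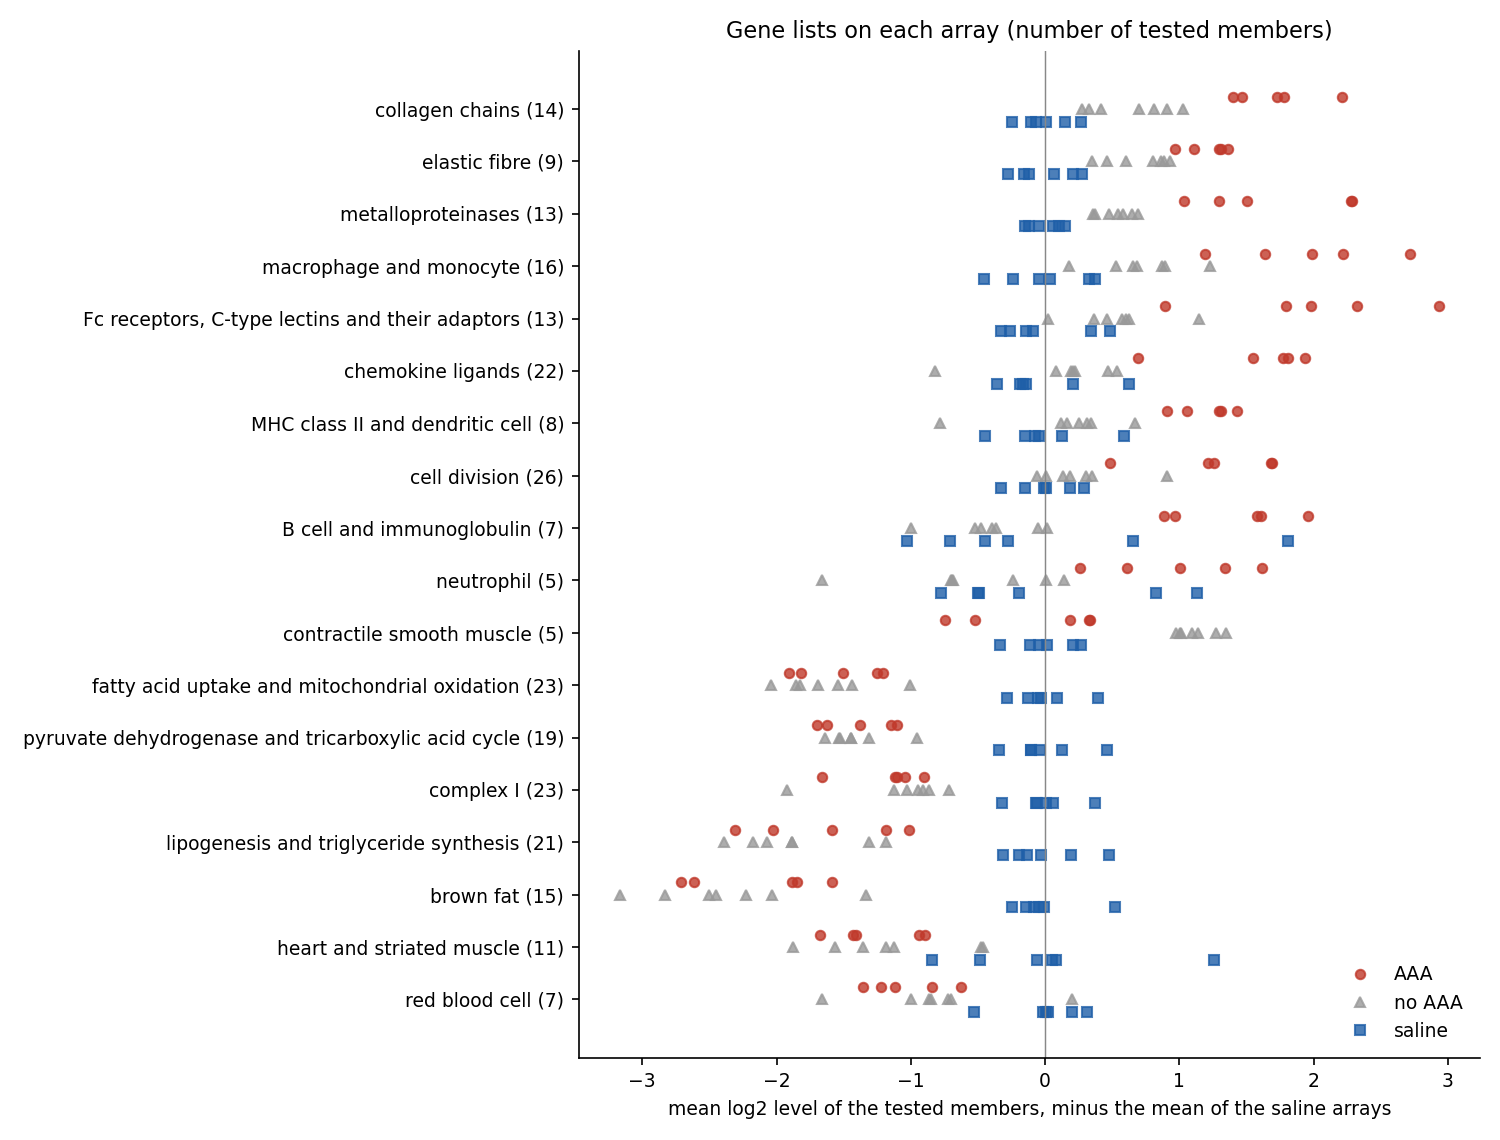
Mean level of the tested members of each gene list on every array, relative to the mean of the saline arrays (x axis, log2), with lists down the page and 1 point an array: AAA circles above, no AAA triangles between and saline squares below in each row. The collagen, elastic fibre, metalloproteinase, macrophage and chemokine lists were higher on AAA arrays, and the energy and fat lists were lower on both AAA and no AAA arrays than on saline arrays.

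The 12 named genes with the largest increase, taken among those that passed and whose groups did not overlap, were led by Mmp13. Mmp13, a collagenase, had levels of 5.09, 6.18, 5.81, 2.47 and 3.13 in AAA 1 to AAA 5, against a lowest of 0.38, a median of 0.77 and a highest of 1.04 in saline aortas, a difference of 3.77 ± 0.49 (SE, adjusted p = 1.1e-05). The weakest AAA array, AAA 4, was still above every saline array. Clec4d and Clec4n, C-type lectins of the Dectin-2 family on myeloid cells, rose by 3.36 ± 0.48 and 3.17 ± 0.51. Clec4d was above background on all 5 AAA arrays and on 4 of the 6 saline arrays. Clec4n levels of 7.02, 3.82, 5.18, 3.14 and 3.67 in AAA 1 to AAA 5 stood against 0.75 to 2.36 in saline aortas, without overlap.

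Spp1, which encodes osteopontin, was at 6.90 to 8.25 in AAA aortas against 3.17 to 5.56 in saline aortas. Cd72, a receptor of B cells and macrophages, had levels of 5.83, 4.88, 5.50, 3.84 and 4.13 in AAA 1 to AAA 5, against a lowest of 1.09, a median of 1.78 and a highest of 2.90 in saline aortas. Its difference was 3.06 ± 0.36 (adjusted p = 5.6e-06), and the groups did not overlap. Ms4a7, a membrane protein of macrophages, and Trem2, the lipid-sensing receptor of lipid-laden macrophages, rose by 2.94 ± 0.35 and 2.90 ± 0.36. Trem2 levels were 5.58, 3.97, 4.74, 2.82 and 3.42 in AAA 1 to AAA 5, against 0.40 to 1.67 in saline aortas.

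Mmp12, the macrophage elastase, rose by 3.00 ± 0.41 and Gpr176, an orphan G protein-coupled receptor, by 2.99 ± 0.36. Col8a1, a short-chain collagen made by migrating vascular cells, had levels of 4.54 to 6.92 in AAA aortas against 2.46 to 3.03 in saline aortas. The survival genes Bcl2a1b and Bcl2a1d rose by 2.92 ± 0.38 and 2.78 ± 0.40, but they are near-identical copies whose probes may share signal, so they are better read as 1 result. Cemip, a hyaluronan-degrading protein outside the 12, was above background on all 5 AAA arrays (0.95 to 4.12) and on 0 of the 6 saline arrays, and its level was at least 4.73-fold higher in AAA aortas. That bound sets the AAA mean against the detection limit of the saline arrays, and the same construction holds for each "at least" given for other genes. Probes were tested only if detected on at least 5 of 18 arrays. Adam8, Col24a1, Cxcl2, Il6 and P4ha3 passed that filter only with the AAA arrays, and Elovl3 only with the saline arrays. Detection counts of such genes follow in part from the filter, so nothing is read from them.

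**Figure D2:**
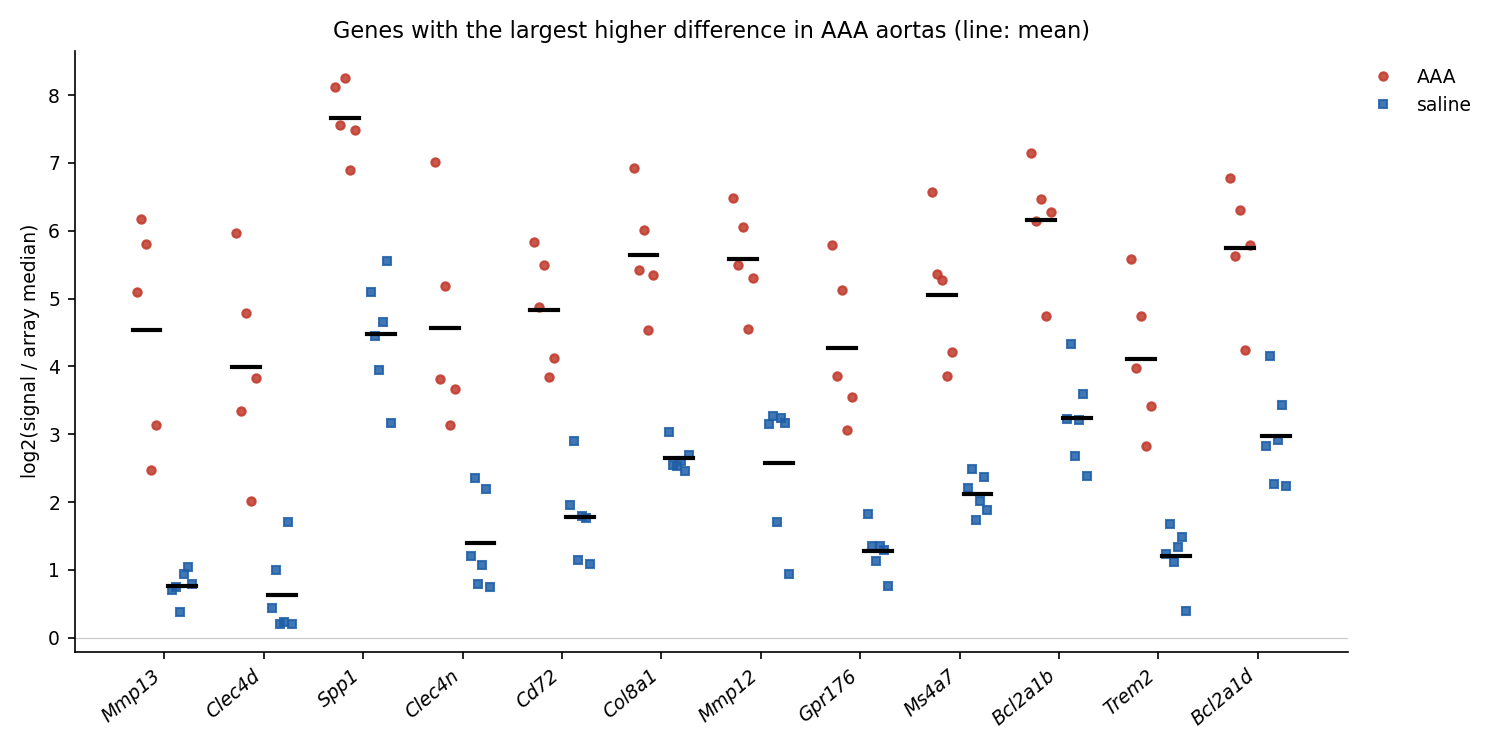
Levels of the 12 named genes with the largest increase on every AAA and saline array (log2 of signal over the array median), with 1 point an array and a bar at each group mean. AAA arrays lay above all saline arrays for each gene, and AAA 4 was often the lowest AAA point, as for Mmp13 at 2.47.

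All 14 tested collagen chains were higher, with a median difference of 1.59 beside 0.13 over all probes. Col1a1, the main fibrillar chain, had levels of 8.17, 6.90, 7.69, 7.57 and 7.55 in AAA 1 to AAA 5, against a lowest of 5.02, a median of 5.41 and a highest of 6.01 in saline aortas (difference 2.14 ± 0.23, adjusted p = 2.6e-06). AAA 4 was not low for this gene. Col5a2, a regulator of fibril diameter, rose by 1.93 ± 0.20, and Col12a1, a fibril-associated collagen of loaded tissue, by 2.33 ± 0.30. Col8a2, the partner of Col8a1, rose by 2.21 ± 0.26. Col24a1, a fibrillar chain of developing bone, was above background on 5 of 5 AAA arrays, on 0 of 7 no AAA arrays and on 0 of 6 saline arrays. Its AAA levels were low, 0.69 to 1.35, and at least 1.82-fold above saline. Col24a1 was tested only because the AAA arrays detected it, so its place among the 14 is not independent.

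The 16 genes that fold, trim and cross-link collagen were all higher, with a median difference of 1.16. Lox, the lysyl oxidase that cross-links collagen and elastin, had levels of 7.59 to 8.37 in AAA aortas, against 6.11 to 6.59 in saline aortas (1.70 ± 0.14). Bmp1, the procollagen C-proteinase, rose by 1.55 ± 0.14, and Pcolce, its enhancer, by 1.42 ± 0.19. Loxl2 rose by 1.58 ± 0.25, yet AAA 4 at 2.75 overlapped with saline 6 at 2.82. P4ha3, a prolyl hydroxylase subunit, was above background on 5 AAA arrays and 0 saline arrays, at least 1.64-fold higher.

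Of 9 elastic fibre genes 8 were higher, with a median difference of 1.19. Ltbp2, a fibrillin-binding protein of elastic fibres, had levels of 7.90, 7.35, 8.32, 7.21 and 7.77 in AAA 1 to AAA 5, against a lowest of 5.24, a median of 5.77 and a highest of 5.88 in saline aortas (2.01 ± 0.24, adjusted p = 5.6e-06). Eln, tropoelastin itself, was at 8.12 to 8.55 in AAA aortas, 7.21 to 8.61 in no AAA aortas and 6.44 to 7.51 in saline aortas, so the AAA and no AAA arrays overlapped. Fbn1, the core of microfibrils, and Fbln2, a fibulin that binds them, rose by 1.19 ± 0.15 and 1.49 ± 0.17. Ltbp1, which holds latent TGF-beta in the matrix, did not pass (0.27 ± 0.17, adjusted p = 0.21), with AAA 1 at 1.13 below all saline arrays and the other AAA arrays at 1.60 to 2.08. Without AAA 1 its difference was 0.43 (adjusted p = 0.029).

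Among 15 small proteoglycans and matricellular proteins 14 were higher, with a median difference of 1.60. Thbs1, an activator of latent TGF-beta, had levels of 4.20, 2.46, 4.32, 2.35 and 2.35 in AAA 1 to AAA 5, against 0.42 to 0.97 in saline aortas. Thbs2 rose by 2.41 ± 0.29 and Tnc, tenascin C of remodelling matrix, by 1.65 ± 0.16, both without overlap. The exception was Ogn, a leucine-rich proteoglycan of the resting wall, which differed by -0.25 ± 0.24 (adjusted p = 0.44).

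All 9 cartilage and tendon genes were higher, with a median difference of 1.62. Comp, cartilage oligomeric matrix protein, had levels of 7.10, 5.78, 6.64, 6.52 and 5.69 in AAA 1 to AAA 5, against a lowest of 3.34, a median of 3.58 and a highest of 4.02 in saline aortas (2.71 ± 0.25). Acan, the large proteoglycan aggrecan, was at 2.19 to 2.67 in AAA aortas and 0.44 to 1.38 in saline aortas. Tnmd, a marker of tendon cells, rose by 2.13 ± 0.33, with AAA 1 at 5.08 standing above the other AAA arrays, whose highest was 3.04. Prg4, lubricin, rose by 2.07 ± 0.37, but saline 5 at 4.38 lay inside the AAA range.

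Of 13 metalloproteinases 12 were higher, with a median difference of 1.45. Mmp14, the membrane-bound enzyme that activates Mmp2, had levels of 6.81, 5.79, 6.55, 5.67 and 5.71 in AAA 1 to AAA 5, against a lowest of 3.91, a median of 4.13 and a highest of 4.28 in saline aortas (2.00 ± 0.18, adjusted p = 1.1e-06). Mmp2, gelatinase A, rose by 1.64 ± 0.20 and Mmp3, stromelysin 1, by 1.59 ± 0.18. Adamts4, an aggrecanase, rose by 2.05 ± 0.23 and was above background on 3 of the 6 saline arrays.

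Mmp9, gelatinase B, gave a weaker contrast. Its levels were 3.53, 2.04, 4.78, 2.43 and 2.90 in AAA 1 to AAA 5, 0.57 to 1.91 in no AAA aortas and 1.78 to 2.20 in saline aortas. AAA 2 overlapped with saline, and the difference was 1.19 ± 0.35 (adjusted p = 0.011). Adam8, a leukocyte metalloproteinase, was above background on 5 AAA arrays and 0 saline arrays, at least 2.08-fold higher. Adam12 was the member that did not pass (0.40 ± 0.21, adjusted p = 0.14); without AAA 4 it differed by 0.54 (adjusted p = 0.048).

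Of 20 cathepsins and other lysosomal hydrolases listed, 14 had a named probe. All 14 were higher and none overlapped with saline, with a median difference of 1.23. Over all probes 30.5% were higher and 16.2% lay above saline without overlap. The names were chosen on these arrays, so nothing is read from the gap. Ctss, an elastolytic cathepsin of macrophages, had levels of 6.20, 5.29, 5.87, 4.25 and 5.34 in AAA 1 to AAA 5, against 2.53 to 3.97 in saline aortas (2.28 ± 0.29). Ctsk, the most potent collagenolytic cathepsin, rose by 1.80 ± 0.23. Lgmn, legumain, which processes other cathepsins, rose by 1.46 ± 0.16. Lyz2, lysozyme of myeloid cells, rose by 1.42 ± 0.19 with AAA levels of 7.83 to 8.80 that reached towards the ceiling.

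Inhibitors of proteases and genes of plasminogen activation moved with them, 6 of 7 higher and 1 lower. Timp1, an inhibitor of metalloproteinases, had levels of 7.21, 7.27, 7.65, 4.91 and 7.28 in AAA 1 to AAA 5, against a lowest of 4.02, a median of 4.39 and a highest of 5.63 in saline aortas (2.33 ± 0.43, adjusted p = 0.00028). AAA 4 was far below the other AAA arrays and below saline 5, so the groups overlapped. Timp4, the family member most restricted to heart, vessel and fat, went the opposite way, at 2.14 to 2.62 in AAA aortas and 3.25 to 4.11 in saline aortas (-1.30 ± 0.15, adjusted p = 5.4e-06).

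Plau, the urokinase plasminogen activator, rose by 2.11 ± 0.27 without overlap, and the serpins Serpina3n and Serpina3g rose by 1.72 ± 0.27 and 2.29 ± 0.45. Serpina3g was at 4.73 on saline 2 and at most 2.09 on the other saline arrays. Slpi, an inhibitor of neutrophil elastase, had levels of 2.00, 3.15, 5.19, 3.04 and 2.84 in AAA 1 to AAA 5, against a lowest of 0.54, a median of 1.57 and a highest of 3.46 in saline aortas. Its call was marginal (1.39 ± 0.51, adjusted p = 0.035), the groups overlapped widely, and without AAA 3 the difference was 0.91 (adjusted p = 0.12). The call was also lost without AAA 2 or any one of saline 3 to saline 6, with quantile normalization, with the BeadChip as a random block and on the 11 arrays alone (adjusted p = 0.082, 0.068 and 0.08 for the last 3).

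The 16 named of 22 listed macrophage and monocyte genes were all higher, with a median difference of 1.93. Their mean level was 4.29 to 5.82 on AAA arrays and 2.64 to 3.47 on saline arrays. Cd68, a lysosomal glycoprotein of macrophages, had levels of 7.30, 6.36, 6.97, 5.29 and 6.05 in AAA 1 to AAA 5, against a lowest of 3.79, a median of 4.03 and a highest of 4.56 in saline aortas (2.26 ± 0.28, adjusted p = 7.4e-06). Adgre1, an adhesion receptor of tissue macrophages, rose by 1.82 ± 0.23, and Csf1r, the receptor on which macrophages depend, by 1.14 ± 0.19. Both were above background on every saline array, at 4.19 to 4.57 and 2.80 to 3.43. Mpeg1, a pore-forming protein of phagocytes, rose by 2.54 ± 0.31, Gpnmb, a glycoprotein of lipid-laden macrophages, by 2.26 ± 0.25, and Cd14, the lipopolysaccharide co-receptor, by 1.35 ± 0.19.

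All 13 Fc receptors, C-type lectins and their adaptors were higher, with a median difference of 1.88. Fcgr4, an activating IgG receptor, had levels of 5.67, 5.43, 5.30, 3.47 and 4.67 in AAA 1 to AAA 5, against 1.83 to 2.91 in saline aortas (2.58 ± 0.31). Fcgr1, the high-affinity IgG receptor, rose by 1.95 ± 0.23, and Tyrobp, the adaptor through which Trem2 signals, by 1.96 ± 0.35. The 6 complement genes were all higher, with C1qa and C1qb, chains of the first component, up by 1.50 ± 0.27 and 1.86 ± 0.29. The 5 subunits of the phagocyte oxidase were all higher as well, with Cybb, the catalytic subunit, up by 1.56 ± 0.21.

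Of 22 chemokine ligands 19 were higher, with a median difference of 1.60. Of the 22, 10 did not overlap with saline, beside 16.2% of all probes that lay above saline without overlap. Cxcl1 and Cxcl2 encode chemokines that draw neutrophils. Cxcl1 had levels of 4.03, 4.67, 5.07, 3.46 and 6.62 in AAA 1 to AAA 5, against a lowest of 2.20, a median of 2.59 and a highest of 3.34 in saline aortas (2.13 ± 0.46, adjusted p = 0.0012). Cxcl2 levels were 1.80, 1.13, 1.43, 0.41 and 3.69 in AAA 1 to AAA 5, and it was above background on 1 of the 6 saline arrays (1.98 ± 0.41, adjusted p = 0.00088). For both genes AAA 5 was the highest and AAA 4 the lowest AAA array, a different leader from the matrix and macrophage genes.

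Ccl4, a chemokine for monocytes and T cells, had levels of 5.06, 3.81, 4.19, 2.10 and 5.07 in AAA 1 to AAA 5, against a lowest of 0.47, a median of 0.81 and a highest of 2.13 in saline aortas. It rose by 2.97 ± 0.43, the largest change of the family, although AAA 4 fell just short of saline 5. Ccl3, a chemokine of the same kind, rose by 2.17 ± 0.35 and was above background on 1 saline array. The monocyte attractants Ccl7 and Ccl8 rose by 2.32 ± 0.34 and 1.97 ± 0.42 without overlap. Ccl5 differed by 0.85 ± 0.41 (adjusted p = 0.1), Cxcl9 by 0.35 ± 0.19 (0.15) and Cxcl13 by 0.17 ± 0.37 (0.74), and these 3 ligands of lymphocyte receptors did not pass. The sign of the Cxcl13 difference turned after quantile normalization (-0.04).

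The 15 chemokine, cytokine and growth factor receptors were all higher, with a median difference of 1.34. Cx3cr1, the fractalkine receptor of monocytes, had levels of 2.92, 3.24, 2.38, 2.47 and 1.92 in AAA 1 to AAA 5, against 0.33 to 0.90 in saline aortas (2.00 ± 0.24), and AAA 4 was not the lowest here. Il7r, the interleukin 7 receptor, rose by 2.08 ± 0.29, Il10ra by 1.74 ± 0.20 and Csf2ra, a chain of the GM-CSF receptor, by 1.61 ± 0.16.

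The 15 cytokines and growth factors were likewise all higher, with a median difference of 1.26. Il1b had levels of 2.10, 3.75, 3.87, 1.77 and 4.49 in AAA 1 to AAA 5, against a lowest of -0.13, a median of 0.59 and a highest of 1.90 in saline aortas (2.56 ± 0.47, adjusted p = 0.00027). AAA 4 lay below saline 5 at 1.90, so the groups overlapped. Il6, which drives the acute phase response, had levels of 1.21, 1.73, 2.05, 0.19 and 3.10 in AAA 1 to AAA 5 and was above background on 0 of the 6 saline arrays, at least 2.70-fold higher. AAA 5 was the highest array for Il1b and Il6, as for Cxcl1 and Cxcl2. Tnfrsf11b, osteoprotegerin, was even across AAA aortas at 5.05 to 5.62, against 3.06 to 3.87 in saline aortas, and overlapped with no AAA aortas at 4.19 to 5.59. Inhbb, an activin subunit, rose by 1.97 ± 0.23 and Hgf, hepatocyte growth factor, by 1.49 ± 0.18.

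Genes of lymphocytes and neutrophils were less uniform. All 8 MHC class II and dendritic cell genes were higher, with a median difference of 1.23, and Cd74, the invariant chain, was at 6.87 to 7.29 in AAA aortas against 5.08 to 6.47 in saline aortas. Of 7 B cell and immunoglobulin genes 4 were higher and 3 did not pass. Igkc, the kappa light chain constant region, had levels of 6.25, 5.91, 8.60, 8.08 and 5.99 in AAA 1 to AAA 5, against 7.41, 8.76, 5.55, 4.21, 3.24 and 2.99 in saline 1 to saline 6 (1.60 ± 0.84, adjusted p = 0.14). Saline 2 was the brightest array of either group for Igkc, and saline 1 exceeded 3 AAA arrays.

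The same saline array held the highest Ighm (7.27), Cd79b (4.40), Cd3d (3.37) and Cxcl13 (4.24) of the 11 arrays, which are genes of B cells, T cells and lymphoid follicles. Its Ccl5 level of 4.07 was exceeded by AAA 5 alone, at 4.22. With all arrays Ighm differed by 0.79 ± 0.68 (adjusted p = 0.38), Cd79b by 0.18 ± 0.45 (0.78) and Cd3d by 0.78 ± 0.40 (0.13). Without saline 2 the differences were 2.28 for Igkc (adjusted p = 0.017), 1.43 for Ighm (0.038), 1.20 for Cd3d (0.00097) and 1.23 for Ccl5 (0.0054), and each then passed. Cd79b and Cxcl13 still did not pass without that array. What tissue saline 2 held was not tested.

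The scanner file also identifies probes for immunoglobulin and T cell receptor segments by segment. Any on the study's lists of genes that differed on these arrays were left out here. The rest had missed the study's rule on the same arrays, so few calls were partly built in and nothing is read from their number. Of 29 kappa variable probes 0 passed by limma, 6 had an unadjusted p under 0.05, and the median difference was 0.56. Over all 21434 probes 10339 had an unadjusted p under 0.05. The median level of the kappa variable probes was 2.88 on AAA 3, 2.63 on AAA 4 and 2.86 on saline 2, and between -0.06 and 0.49 on the other AAA and saline arrays. Of 22 heavy variable probes 1 was higher, and of 7 T cell receptor probes 2 were higher, beside 30.5% of all probes. The 2 T cell receptor probes were dim. TRGV4 was at 0.35 to 0.87 in AAA aortas and -0.03 to 0.29 in saline aortas. TRGV6 was above background on 4 AAA arrays and 0 saline arrays, at least 1.08-fold higher.

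Of 8 T and natural killer cell genes 7 were higher, and the 1 that did not pass was Cd3d, given above. The largest difference in this list was that of Il7r, which is also in the receptor list. Thy1, which is also made by fibroblasts, rose by 1.60 ± 0.26, and Slamf7 and Cd244a, receptors of natural killer and myeloid cells, were above background on 5 AAA arrays and 0 saline arrays, at least 1.75-fold and 1.63-fold higher. Of the B cell genes that passed, Blnk and Btk, signalling proteins that myeloid cells also use, rose by 1.65 ± 0.24 and 1.48 ± 0.25. Tnfrsf13b, the TACI receptor, rose by 1.04 ± 0.16.

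Of 5 neutrophil genes 2 were higher and 3 did not pass. Csf3r, the G-CSF receptor, was at 1.38 to 2.32 in AAA aortas and -0.02 to 1.30 in saline aortas, with 3 of 6 saline arrays above background, and Fpr2, a formyl peptide receptor, rose by 1.50 ± 0.30. S100a8, an abundant granulocyte protein, had levels of 4.43, 4.43, 5.78, 3.63 and 5.73 in AAA 1 to AAA 5, against 3.42, 5.54, 2.87, 3.97, 5.69 and 3.30 in saline 1 to saline 6 (0.67 ± 0.60, adjusted p = 0.4). Saline 2 and saline 5 matched the brightest AAA arrays. S100a9 and Retnlg differed by 0.58 ± 0.56 and 0.75 ± 0.34, and Retnlg passed without saline 2 (0.90, adjusted p = 0.046) and without saline 5 (0.95, adjusted p = 0.031).

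**Figure D3:**
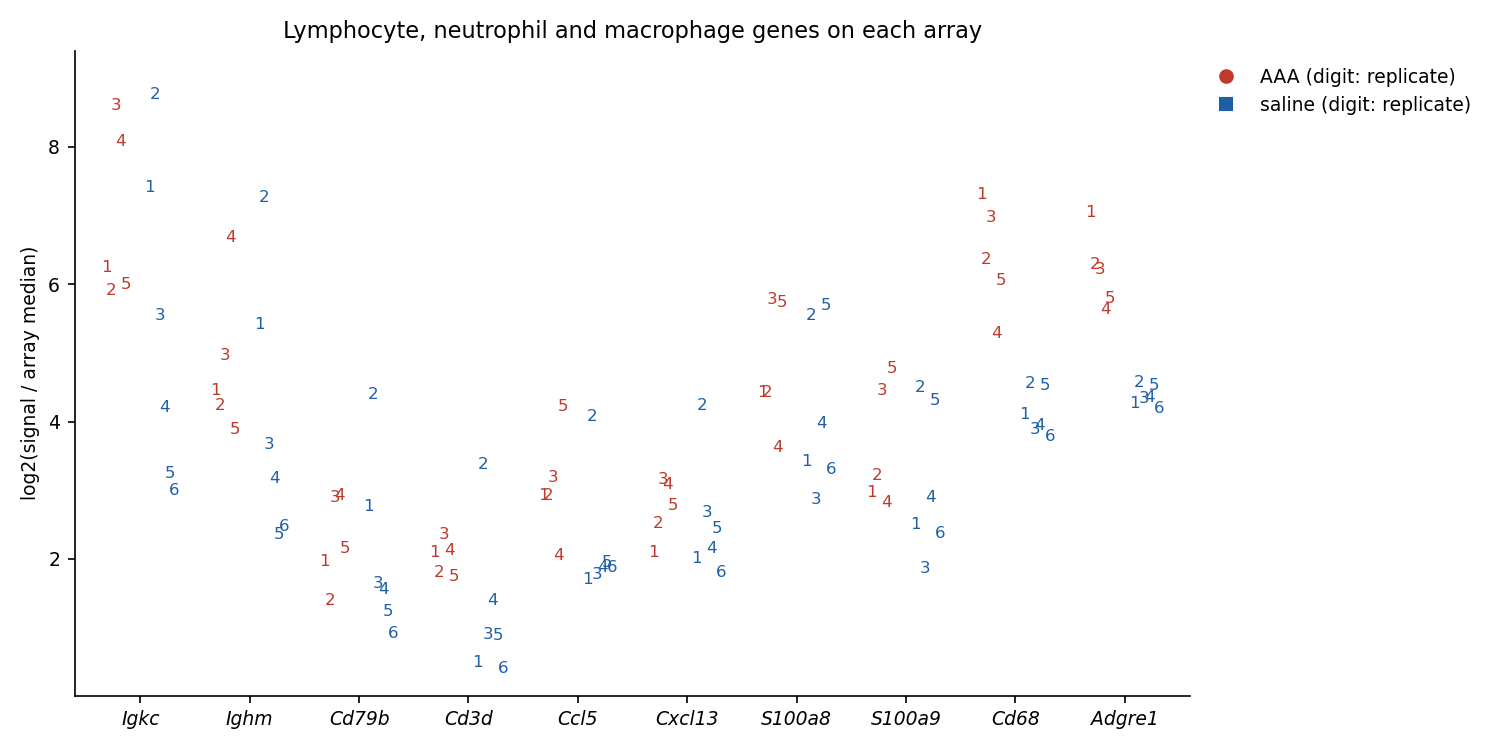
Levels of leukocyte genes on every AAA array and every saline array (log2 of signal over the array median), with the replicate number as the plotting symbol. Cd68 and Adgre1 separated AAA from saline arrays, while for Igkc, Ighm and Cd3d saline 2 lay above the brightest AAA array.

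Of 11 genes of the interferon response 10 were higher, with a median difference of 1.31. Ifi47, an interferon-gamma-induced GTPase, was at 3.46 to 3.99 in AAA aortas and 1.88 to 3.17 in saline aortas, and Ifitm1 rose by 1.74 ± 0.39 with overlap. Rsad2, an antiviral enzyme typical of type I interferon, differed by 0.57 ± 0.24 (adjusted p = 0.066), and by 0.81 without AAA 4 (0.0045). All 7 genes of cell adhesion and leukocyte entry were higher. Vcam1, the endothelial ligand for monocytes and lymphocytes, had levels of 7.17, 7.21, 7.30, 6.27 and 7.14 in AAA 1 to AAA 5, against 5.31 to 6.11 in saline aortas (1.37 ± 0.18). Itgb2, the shared chain of the leukocyte integrins, rose by 1.41 ± 0.21, and Esm1, endocan of activated endothelium, by 1.95 ± 0.42, although AAA 4 at 3.22 lay below saline 6 at 3.24.

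The 26 named of 31 listed cell division genes were all higher, with a median difference of 1.24. Of the 26, 17 did not overlap with saline, beside 16.2% of all probes that lay above saline without overlap. Genes of mitosis commonly share a CCAAT box, bound by NF-Y, and a TTTGAA element of the kind called CHR, through which they are switched on together late in the cycle. The promoters of Prc1, a spindle midzone protein, and Cdk1, the mitotic kinase, are shown because both hold the pair and both were among the larger increases. They lie at chr7:80294201-80294500 on the plus strand and chr10:69352863-69353162 on the minus strand, as RefSeq windows of 300 bases around the gene start on mouse build GRCm38.p6, with both motifs in capitals on either strand.
Prc1: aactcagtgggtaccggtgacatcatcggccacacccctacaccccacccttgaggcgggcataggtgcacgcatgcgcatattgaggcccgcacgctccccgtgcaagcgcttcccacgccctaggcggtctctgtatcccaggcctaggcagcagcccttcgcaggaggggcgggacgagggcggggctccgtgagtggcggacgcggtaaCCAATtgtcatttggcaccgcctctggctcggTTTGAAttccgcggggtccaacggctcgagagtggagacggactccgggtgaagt
Cdk1: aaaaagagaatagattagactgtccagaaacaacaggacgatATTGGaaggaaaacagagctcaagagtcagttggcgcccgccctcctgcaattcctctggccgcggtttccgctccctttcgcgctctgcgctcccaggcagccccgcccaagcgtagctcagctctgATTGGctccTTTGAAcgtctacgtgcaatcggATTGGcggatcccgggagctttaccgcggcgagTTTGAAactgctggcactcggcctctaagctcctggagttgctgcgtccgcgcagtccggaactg

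Of the 26 genes 24 matched a window. CCAAT stood in 18 of these (75%), against 37.9% of all 27025 windows, TTTGAA in 15 (62.5%, against 18.1%) and both in 13 (54.2%, against 7.12%). A match describes the letters and not a bound site. Prc1 had levels of 4.47, 3.82, 4.58, 2.73 and 4.02 in AAA 1 to AAA 5, against a lowest of 1.27, a median of 2.28 and a highest of 2.51 in saline aortas (1.78 ± 0.31, adjusted p = 0.0002). Cdk1 levels were 3.17, 2.19, 3.16, 1.34 and 2.25 in AAA 1 to AAA 5, against 0.02 to 1.06 in saline aortas (1.74 ± 0.29, adjusted p = 0.00012). In both, AAA 1 and AAA 3 were highest and AAA 4 lowest but still above saline.

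Cdca3, a trigger of mitotic entry, rose by 1.61 ± 0.26, Ccnb1, cyclin B1, by 1.45 ± 0.23, and Tk1, a thymidine kinase of S phase, by 1.36 ± 0.22, each without overlap. Mki67, the proliferation antigen, rose by 1.41 ± 0.26, and here AAA 4 at 1.41 lay below saline 2 at 1.65. Mean levels over the list were 1.51 to 2.73 on AAA arrays, 0.97 to 1.94 on no AAA arrays and 0.70 to 1.32 on saline arrays. Macrophage genes, given above, were higher on the same AAA arrays, and their part in the cell division values was not tested.

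Of 14 regulators of TGF-beta, BMP and Wnt signalling 13 were higher and 1 was lower. Frzb, a secreted Wnt antagonist, had levels of 4.39, 4.10, 4.39, 3.67 and 3.87 in AAA 1 to AAA 5, against a lowest of 1.92, a median of 2.17 and a highest of 2.61 in saline aortas (1.89 ± 0.14, adjusted p = 2.4e-07). Bmper, an extracellular BMP modulator, rose by 1.65 ± 0.18 and Tgif1, a corepressor of Smad signalling, by 1.49 ± 0.15. Acvr1c, the receptor ALK7 of fat cells, fell by 1.29 ± 0.24.

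Smooth muscle, the main cell of the normal media, had 20 genes listed and 5 named. Of these 5, 0 were higher, 1 was lower and 4 did not pass by limma. Acta2, smooth muscle actin, was above background on all 18 arrays and had levels of 2.74, 4.54, 3.69, 4.00 and 4.62 in AAA 1 to AAA 5, against a lowest of 3.34, a median of 3.68 and a highest of 4.05 in saline aortas (0.22 ± 0.24, adjusted p = 0.5). AAA 1 was below every saline array and AAA 2 and AAA 5 were above every one. Without AAA 1 the difference was 0.51 (adjusted p = 0.027). Kcnmb1, a subunit of the smooth muscle potassium channel, differed by 0.18 ± 0.19, Cald1, caldesmon, by 0.21 ± 0.16, and Synpo2, an actin-binding protein, by -0.30 ± 0.25. After quantile normalization Acta2, Kcnmb1 and Cald1 differed by -0.01, -0.06 and -0.01, so no direction holds for them. Slmap, a sarcolemma protein, fell by 0.73 ± 0.20 (adjusted p = 0.0075). No AAA aortas were at 4.85 to 5.39 for Acta2, above both AAA and saline aortas. The study had listed Acta2, Cald1 and Kcnmb1 for that order on these arrays, so nothing is read from it.

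Genes of energy metabolism were nearly all lower where a probe could be named. The 6 lists from glucose uptake to ATP synthase held 102 distinct tested genes, and 101 of these were lower in AAA aortas. Over all probes 9.22% were lower, but the names came from lists of genes that differed on these arrays, so nothing is read from the gap. The lists held 20, 21, 28, 34, 17 and 27 genes, and the members without a named probe are not counted. All 16 named genes of glucose uptake, glycolysis and glycogen were lower (median difference -1.30), as were all 19 of pyruvate dehydrogenase and the tricarboxylic acid cycle (-1.33) and all 23 of fatty acid uptake and mitochondrial oxidation (-1.36). The fall held for all 23 named of the 34 subunits listed for complex I (-1.14), for all 11 named genes of complexes II and III and cytochrome c (-1.33), and for 12 of 13 of complexes IV and V (-1.29).

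Slc2a4, the insulin-responsive glucose transporter GLUT4 of fat and muscle, had levels of 1.60, 1.87, 2.28, 2.76 and 2.62 in AAA 1 to AAA 5, against a lowest of 3.65, a median of 4.30 and a highest of 4.77 in saline aortas (-2.04 ± 0.24, adjusted p = 5.6e-06). Fbp2, the muscle form of fructose bisphosphatase, was at 0.23 to 1.10 in AAA aortas and 2.59 to 4.01 in saline aortas. Pck1, which makes glycerol for triglyceride in fat, fell by 1.86 ± 0.39, and Pygl and Ppp1r3b of glycogen turnover fell by 1.82 ± 0.27 and 2.04 ± 0.33. None of these overlapped.

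Sucla2, a subunit of succinyl-CoA ligase, had levels of 1.94, 1.98, 2.17, 2.65 and 1.99 in AAA 1 to AAA 5, against a lowest of 3.46, a median of 3.88 and a highest of 4.32 in saline aortas (-1.76 ± 0.17, adjusted p = 1.4e-06). The groups did not overlap. Suclg1, another subunit of the same enzyme, fell by 1.75 ± 0.15, Idh3g, of isocitrate dehydrogenase, by 1.61 ± 0.15 and Pdhb, of pyruvate dehydrogenase, by 1.54 ± 0.19. In this list the order of AAA arrays was turned, with AAA 1 lowest in the mean and AAA 5 highest.

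Slc27a2, an acyl-CoA synthetase that takes up fatty acids, fell by 3.14 ± 0.45, and Cpt1b, the muscle and brown fat form of the carnitine shuttle, was at 2.45 to 3.65 in AAA aortas and 5.34 to 6.21 in saline aortas. Fabp3, a fatty acid carrier, had levels of 4.60, 4.73, 5.06, 4.26 and 5.28 in AAA 1 to AAA 5, against 6.49 to 7.10 in saline aortas (-2.16 ± 0.27). The dehydrogenases Acadl and Acadvl fell by 1.99 ± 0.24 and 1.66 ± 0.16, and Acsl1, an acyl-CoA synthetase, by 1.83 ± 0.23. AAGGTCA, the element of the estrogen-related receptors that drive mitochondrial genes, stood on either strand in 2 of 18 matched promoter windows of this list (11.1%) and in 3 of 21 of complex I (14.3%), against 4.66% of all windows.

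In the respiratory chain Cox7a1, a subunit of complex IV in muscle and brown fat, had levels of 3.77, 3.73, 4.37, 3.14 and 4.66 in AAA 1 to AAA 5, against a lowest of 6.66, a median of 7.40 and a highest of 7.88 in saline aortas. Its difference of -3.41 ± 0.43 (adjusted p = 7.9e-06) was the largest fall among the named genes. Cox8b, another such subunit, fell by 2.44 ± 0.45 with saline levels of 8.37 to 8.88 near the ceiling, where differences are compressed, and Cox6a1, the form of widespread tissues, by 1.47 ± 0.21. Ndufb9 and Ndufa10 of complex I fell by 1.60 ± 0.19 and 1.38 ± 0.17, Uqcr11 of complex III by 1.62 ± 0.35 and Cycs, cytochrome c, by 1.46 ± 0.15. Cox6a2, the heart and muscle form, differed by -1.60 ± 0.81 (adjusted p = 0.12), with 2.15 to 5.43 across saline arrays.

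Of 12 probes for genes of the mitochondrial genome itself 3 were lower and the median difference was -0.14. The median was -1.14 for the nuclear subunits of complex I, but those were named through the study's lists of genes that differed on these arrays. The mitochondrial probes were not, so nothing is read from the gap. Most of these probes were near the ceiling, such as mt-CytB at 8.75 to 8.86 in AAA aortas and 8.90 to 9.10 in saline aortas, so a fall there could have been hidden. The 3 that passed, mt-ND3 (-0.97), mt-ND4L (-0.67) and mt-ND5 (-0.57), were among the dimmer ones.

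**Figure D4:**
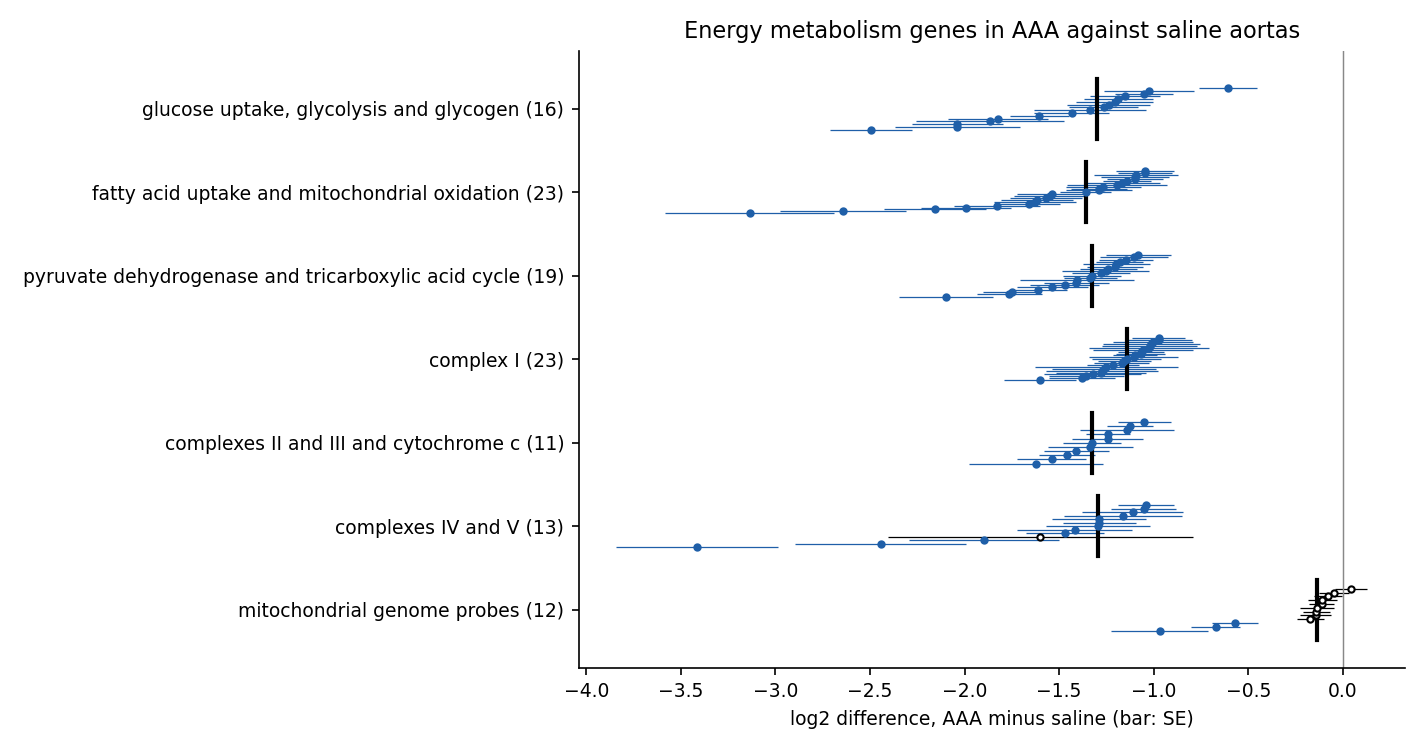
Difference between AAA and saline aortas (log2, AAA minus saline) for each tested member of the 6 energy lists and for the probes of the mitochondrial genome, with 1 point a gene, a thin bar for its SE, a thick bar at each list's median and open points for genes that did not pass. All points of the nuclear lists lay below 0, and the mitochondrial genome probes lay between -0.97 and 0.04.

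Brown fat genes moved in the same direction. All 15 named were lower with no overlap, beside 5.24% of all probes that lay below saline without overlap, and the median difference was -2.08. Their mean level was 2.15 to 3.27 on AAA arrays, 1.69 to 3.53 on no AAA arrays and 4.62 to 5.38 on saline arrays. The part of fat around the vessel in the energy values was not tested. Lncbate10, a long noncoding RNA of brown fat, had levels of 0.49, 0.52, 1.00, 0.73 and 1.13 in AAA 1 to AAA 5, against a lowest of 3.14, a median of 3.86 and a highest of 4.75 in saline aortas (-3.07 ± 0.31, adjusted p = 1.8e-06). Otop1, a proton channel of brown fat, was at 0.66 to 2.50 in AAA aortas and 3.90 to 4.93 in saline aortas. Cidea, a lipid droplet protein of brown fat, fell by 2.39 ± 0.35, and Kcnk3, a potassium channel, Nrg4, a secreted factor of brown fat, and Ppargc1a, a coactivator of mitochondrial genes, by 2.08 ± 0.26, 2.12 ± 0.34 and 1.63 ± 0.27.

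Ucp1, the uncoupling protein that defines brown fat, had levels of 6.37, 5.97, 8.28, 7.69 and 7.78 in AAA 1 to AAA 5, against 8.58 to 8.68 in saline aortas. The groups did not overlap, yet the call was marginal (-1.42 ± 0.54, adjusted p = 0.044). It was lost without any single saline array and without AAA 1 or AAA 2 (differences between -1.43 and -1.10). Also losing it were the BeadChip as a random block (adjusted p = 0.092), quantile normalization (0.057), array weights (0.068), no filter on dim probes (0.078) and the replicate number as a block (0.085). The saline values, all near the ceiling, spanned only 8.58 to 8.68, while no AAA aortas ranged from 4.15 to 8.43.

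All 21 genes of lipogenesis and triglyceride synthesis were lower, with a median difference of -1.52. Elovl6, a fatty acid elongase, had levels of 2.52, 3.10, 3.99, 4.95 and 4.77 in AAA 1 to AAA 5, against 6.28 to 7.43 in saline aortas. Thrsp and Acacb of fatty acid synthesis fell by 2.26 ± 0.29 and 2.05 ± 0.32, and Agpat2 and Dgat2 of triglyceride assembly by 2.25 ± 0.32 and 1.86 ± 0.28. Pnpla3, a lipase-like protein of fat and liver, fell by 2.03 ± 0.38. Elovl3, the elongase of cold-exposed brown fat, was above background on 6 of 6 saline arrays and on 0 of 5 AAA and 0 of 7 no AAA arrays, at least 2.14-fold lower in AAA aortas. Elovl3 was tested only because the saline arrays detected it.

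Of 11 genes of lipid droplets and lipolysis 9 were lower, 1 was higher and 1 did not pass. G0s2, the inhibitor of adipose triglyceride lipase, had levels of 3.50, 3.46, 3.46, 3.32 and 4.31 in AAA 1 to AAA 5, against 4.74 to 6.33 in saline aortas (-1.96 ± 0.28). Aqp7, the glycerol channel, Cidec and Plin1, coats of the adipocyte droplet, fell by 1.94 ± 0.30, 1.91 ± 0.29 and 1.48 ± 0.27. Lipa, the acid lipase of lysosomes, rose by 0.95 ± 0.19, the direction of the other lysosomal genes. Plin2, the droplet coat that macrophages also carry, differed by -0.44 ± 0.25 (adjusted p = 0.16), with AAA 1 and AAA 3 at 6.94 and 6.71 inside the saline range of 6.25 to 7.09 and the other AAA arrays at 5.56 to 5.79 below it. Without AAA 1 its difference was -0.65 (adjusted p = 0.036).

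The 15 regulators and secreted proteins of adipocytes were all lower, with a median difference of -1.16. Pparg, the master regulator of fat cells, had levels of 3.28, 2.89, 3.50, 3.79 and 3.93 in AAA 1 to AAA 5, against 4.52 to 5.43 in saline aortas (-1.55 ± 0.24, adjusted p = 6.8e-05). Adipoq, adiponectin, was at 6.88 to 7.49 in AAA aortas and 7.76 to 8.40 in saline aortas (-0.93 ± 0.26). Orm1, an acute phase protein also made by fat, fell by 1.96 ± 0.34 and Prkar2b, a subunit of protein kinase A, by 1.75 ± 0.30. Lep, leptin, overlapped between the groups (-1.10 ± 0.42, adjusted p = 0.044). Its call was lost without AAA 1, AAA 2, AAA 3, AAA 5, saline 2, saline 4 or saline 5 (adjusted p between 0.061 and 0.11). It was also lost with the BeadChip as a random block (adjusted p = 0.11) and with no filter on dim probes (0.078).

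The 12 largest falls, taken by the same rule as the largest increases, held mainly the energy, fat and brown fat genes given above, together with Aspg, an asparaginase homologue, Dmtn, dematin of the red cell skeleton, and Myl7 of the heart. Aspg levels were 0.32, 0.04, 0.72, 1.83 and 1.02 in AAA 1 to AAA 5, with 4 of 5 arrays above background, against 2.64 to 3.89 in saline aortas (-2.57 ± 0.28). Dmtn was at 0.40 to 1.31 in AAA aortas and 3.14 to 3.62 in saline aortas (-2.35 ± 0.23).

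**Figure D5:**
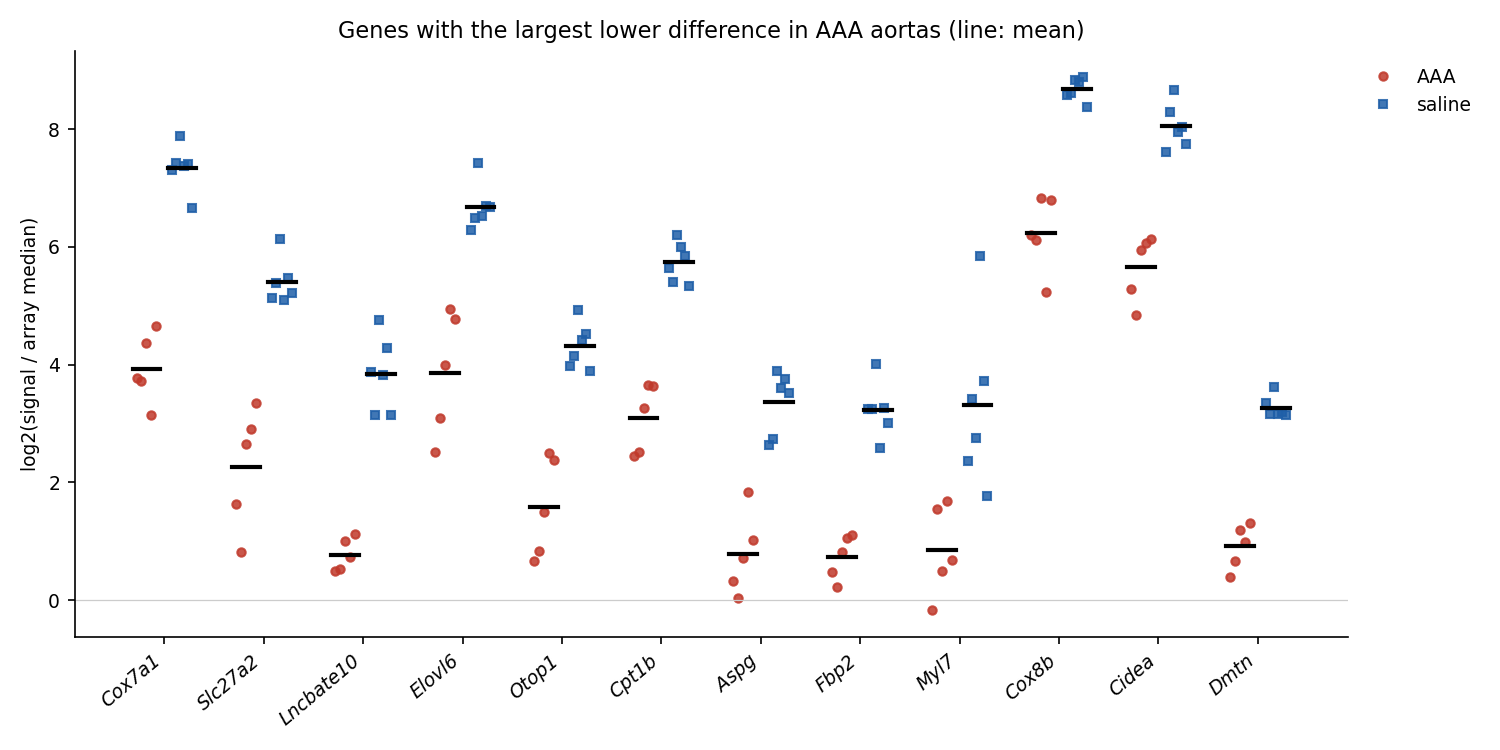
Levels of the 12 named genes with the largest fall on every AAA and saline array (log2 of signal over the array median), with 1 point an array and a bar at each group mean. All AAA arrays lay below all saline arrays for each gene, and for Myl7 saline 4 stood far above the other saline arrays.

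Of 11 heart and striated muscle genes 9 were lower, 1 was higher and 1 did not pass, and saline 4 was the brightest array for several. Myl7, the atrial myosin light chain, had levels of -0.17, 1.55, 0.49, 1.69 and 0.68 in AAA 1 to AAA 5, against 2.36, 3.41, 2.76, 5.85, 3.73 and 1.77 in saline 1 to saline 6 (-2.47 ± 0.61, adjusted p = 0.0034). AAA 4 at 1.69 and saline 6 at 1.77 were nearly equal. Actc1, cardiac actin, was at 0.85 to 3.46 in AAA aortas and 3.09 to 6.08 in saline aortas, and Myl4 and Tnnc1 also overlapped, with differences of -1.23 ± 0.39 and -1.47 ± 0.51. The Tnnc1 call was lost without AAA 1, AAA 2, AAA 5 or saline 4 (adjusted p between 0.059 and 0.07). It was also lost with the BeadChip as a random block (adjusted p = 0.075) and with no filter on dim probes (0.052). The list's mean on saline 4 was 4.44, and at most 3.25 on the other saline arrays. Ankrd1, a stretch-induced nuclear protein of muscle and vessel wall, rose by 1.09 ± 0.24.

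Of 7 red blood cell genes 6 were lower and 1 was higher. Hbb-b1, a beta globin whose probe cannot be told from its near-identical copies, was at 6.64 to 7.32 in AAA aortas and 7.52 to 8.58 in saline aortas (-1.23 ± 0.37, adjusted p = 0.012). Alas2, the first enzyme of haem synthesis in red cells, fell by 1.14 ± 0.32 with overlap. Art4, which carries the Dombrock blood group and is also made outside the blood, rose by 1.16 ± 0.19.

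Of 14 endothelial genes listed 3 had a named probe. Car4, carbonic anhydrase 4 of capillaries, fell by 1.37 ± 0.24, and Adgrl4 and Robo4 differed by -0.15 ± 0.19 and -0.01 ± 0.25. The study had listed Adgrl4 and Robo4 as lower in no AAA than in both other groups on these arrays. Nothing about endothelium as a whole is therefore read from them. The 3 genes of nerve and Schwann cells did not pass. Their levels varied widely within each group, with Ngfr at 0.22 to 2.72 in AAA aortas and 0.72 to 3.82 in saline aortas, and Th and Dbh, enzymes of noradrenaline synthesis, were above background on 3 of 5 AAA arrays.

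Genes of the circadian clock changed in both directions, with 3 higher, 5 lower and 1 not passed among 9. Arntl, which encodes the activator BMAL1, had levels of 3.32, 3.69, 2.20, 3.74 and 3.06 in AAA 1 to AAA 5, against a lowest of 0.21, a median of 1.16 and a highest of 1.33 in saline aortas (2.18 ± 0.28, adjusted p = 9.6e-06). Npas2, its partner, rose by 1.40 ± 0.25 and Nfil3, a repressor of the same output genes, by 1.05 ± 0.28. Dbp, an output gene in the opposite phase, was at 4.70 to 6.00 in AAA aortas and 6.32 to 6.90 in saline aortas, and Tef and Per2 fell by 1.11 ± 0.17 and 1.03 ± 0.19. AAA 3 was the array closest to saline for Arntl, Npas2 and Dbp. No AAA aortas were at 2.60 to 4.17 for Arntl and 3.99 to 6.31 for Dbp. The time of day at which aortas were taken is not in the labels, and its part in these values was not tested.

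All 4 heat shock and chaperone genes were lower. Hspa1b, an inducible Hsp70, had levels of 1.55, 0.67, 0.52, 0.75 and 2.39 in AAA 1 to AAA 5, 2.40 to 5.36 in no AAA aortas, and a lowest of 1.73, a median of 3.38 and a highest of 3.86 in saline aortas (-1.99 ± 0.54, adjusted p = 0.0068). AAA and saline overlapped through AAA 5 and saline 4. Hspa1a, its near-identical copy, was above background on 3 of 5 AAA arrays and fell by 1.20 ± 0.36, and these probes may share signal. Hspd1 and Hspa9, chaperones of mitochondria, fell by 1.06 ± 0.20 and 1.01 ± 0.17.

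The levels of no AAA aortas differed in place between lists. In 21 of the 22 higher lists the no AAA mean lay between the AAA and saline means. The names came from the study's comparisons among all of these groups on the same arrays. The place of no AAA was thus partly built in, and nothing is read from it in any list. The collagen chains averaged 5.61 in AAA aortas, 4.54 in aortas without AAA and 3.90 after saline, and the macrophage genes 5.05, 3.82 and 3.10 in the same order of groups. For fatty acid oxidation the means were 4.27 for AAA, 4.18 for no AAA and 5.81 for saline aortas, and for brown fat 2.73, 2.50 and 4.86. The contractile smooth muscle genes averaged 3.35 for AAA, 4.56 for no AAA and 3.44 for saline aortas, with the no AAA aortas highest. Acta2, Cald1 and Kcnmb1 were listed by the study as higher in no AAA than in both other groups on these arrays. That peak was therefore partly built into the names.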

How the data were processed

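The authors hybridised RNA from 18 aortas to Illumina Mouse-6 arrays and deposited the scanner table of BeadStudio 2, in which each probe has an average signal intensity, not normalized, and a detection score as a fraction between 0 and 1. Columns were tied to mice by the labels' descriptions. The authors' processed matrix was not used, since 12 of its 18 columns follow another array than the label names, with AAA 1 to AAA 5 and no AAA 1 to no AAA 5 exchanged; its group assignment was tried as an alternative after the data were seen, and the table's other 108 columns of per-array values were left out. Repeated lines of an identifier were averaged, which left 46624 probes, and 21434 with a detection score over 0.95 on at least 5 of 18 arrays were tested. Median signal was 127.6 to 135.2 on AAA, 122.0 to 142.6 on no AAA and 108.1 to 126.8 on saline arrays, and the number of arrays limits the precision. Each array was divided by its median, log2 was taken, and limma 3.58.1 in R 4.3.3 (lmFit and eBayes with trend, 3 group means, two-sided) gave the contrast of AAA minus saline with Benjamini-Hochberg adjustment over all tested probes. The labels do not say that arrays came from separate litters or RNA preparations, so p-values measure the spread between these aortas. Alternatives were quantile normalization, normexp background correction, other filters, the 11 arrays alone, array weights, blocks for BeadChip and replicate number, the methods' t-test, and leaving out each array.

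Gene names came from accessions that the study's additional files pair with probe identifiers, brought to current symbols through RefSeq (1549 probes, 1342 names), and columns of fold changes and p-values in those files were not used. Of a gene's probes the one with the highest mean signal was taken; 180 tested genes had several tested probes, and in 0 of these did the signs differ. The members and lists were chosen with earlier results of these data known. Named were the 12 largest increases and falls among passing genes without overlap, up to 6 members of each list by size with members of the rarer direction, and genes that define other cell types; members that did not pass and a few others were named after their values were seen, and some members that this rule names are not reported here. Motif matches come from RefSeq promoter windows of 300 bases (GRCm38.p6).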

Additional observations from a re-analysis of the deposited data

Results flagged for a closer look

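Among the 388 pairs of a named gene and a group, 25 had 1 array that stood far from the rest of its group by Dixon's test, and chance gives about 1 in 20 groups. Of these 25 arrays, 9 were saline 2, 4 were AAA 4, 4 were saline 5, and the others were spread over 6 arrays. Saline 2 was above the other saline arrays for genes of lymphocytes and antigen handling: Cd3d (3.37, next 1.40), Ccl5 (4.07, next 1.95), Cxcl13 (4.24, next 2.67), Btk (2.23, next 1.23), Tnfrsf13b (1.90, next 1.20), Ifi30 (4.15, next 3.61), Ifi47 (3.17, next 2.18) and Serpina3g (4.73, next 2.09). For Ltbp2 it was the lowest (5.24, next 5.68).

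AAA 4 was below the other AAA arrays for Timp1 (4.91, next 7.21), Vcam1 (6.27, next 7.14), Loxl2 (2.75, next 3.89) and Uqcr11 (4.53, next 5.92). Saline 5 was above the other saline arrays for Prg4 (4.38, next 2.70), Timp1 (5.63, next 4.60) and Serpina3n (6.16, next 5.39), and below them for Arntl (0.21, next 0.97).

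Saline 3 was highest for Elovl6 (7.43, next 6.69) and Cox6a1 (8.58, next 8.32). Saline 4 was lowest for Prc1 (1.27, next 2.17), and saline 6 was highest for Loxl2 (2.82, next 2.23) and lowest for Fabp3 (6.49, next 6.96). Among AAA arrays, AAA 1 was highest for Tnmd (5.08, next 3.04), AAA 5 was highest for G0s2 (4.31, next 3.50) and AAA 2 was lowest for Timp4 (2.14, next 2.48).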

How the results depend on the processing

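Of 194 named genes, 166 kept their direction and side of the adjusted p threshold in every setting that tested them. That count leaves aside the groups as the authors' matrix labels them. Quantile normalization gave 3573 probes higher and 3195 lower, against 6540 and 1977, and moved the median of all probes to 0.015, against 0.134. The 2-fold threshold with an unadjusted p under 0.05 gave 790 and 451 with limma and 746 and 447 with the methods' t-test. Leaving out 1 array gave 5824 to 6595 higher and 1723 to 2004 lower. Of the 40 list counts, 3 moved by over 1.5 times apart from the 2-fold threshold: with probes detected on all arrays, 0 neutrophil and 16 cell division genes were higher and 4 heart genes lower, and the methods' t-test also gave 4 heart genes. The methods' t-test lost 11 named calls, P4ha3, Mmp9, Adam8, Slpi, Cxcl2, Ifitm1, Esm1, Lep, Ucp1, Tnnc1 and Myl4. With the BeadChip as a random block 4 named calls were lost, Slpi (adjusted p = 0.068), Lep (0.11), Ucp1 (0.092) and Tnnc1 (0.075). With the groups as the authors' matrix labels them 5972 were higher and 1792 lower, and 91 of the 169 named genes that passed did so in the same direction. Under the other settings, changes of sign were all of genes that did not pass: after quantile normalization Cxcl13 (-0.04), Cd79b (-0.01), Acta2 (-0.01), Cald1 (-0.01) and Kcnmb1 (-0.06), Cd79b without saline 6 (-0.05, and up to 0.64 without 1 array), Adgrl4 without AAA 2 (0.01, and down to -0.28), and Robo4 with the BeadChip as a random block (0.03), with normexp (0.05), and without AAA 2 (0.21), AAA 5 (0.07), saline 3 (0.05), saline 4 (0.02) or saline 5 (0.02), with -0.23 at the other end.

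Arrays with the same number did not deviate together (correlations -0.04, -0.19, -0.09, 0.08 and 0.11), so the numbers do not pair them. With the replicate number as a block 6323 probes were higher and 1994 lower, 2 named genes lost their call (Slpi and Ucp1), 1 gained it (Rsad2, 0.62) and Robo4 changed sign (0.02). A fixed BeadChip term could not be fitted for this contrast, and levels near the ceiling or near background limit what can be seen.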
